A study of Arabidopsis thaliana with 4 samples.

Results

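The tandem CCCH zinc finger (TZF) genes of Arabidopsis thaliana were followed across 4 RNA-seq libraries of 12-day-old whole seedlings. The family was represented by 10 loci out of the 33602 genes in each table, from TZF1 to TZF11 without TZF8, with TZF4 called by its older name SOM (SOMNUS). The family was selected on an earlier result from the same libraries, the high level of SOM in the overexpressor, and the other loci were taken from the family by name. All differences between the genotypes are therefore given as a description of these libraries, and their test results are not support for the choice.

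The groups were Col-0 (WT), the reference accession, and a transgenic line, compared with it, that overexpresses the small open reading frame sORF1511, line 7 in the design text. The series concerns peptides from such frames in the phloem and the timing of flowering. Each genotype had 2 libraries that the labels call biological replicates, each from 5 pooled seedlings, and no treatment is named. With 1 line, the transgene and the line cannot be told apart, and the labels do not name the promoter that drives it.

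Tandem CCCH proteins bind RNA through a pair of zinc fingers, each holding its zinc ion with 3 cysteines and 1 histidine. In plants the fingers follow an arginine-rich stretch, and several of these proteins have been seen in P-bodies and stress granules, the cytoplasmic sites where messenger RNA is decayed or stored. SOM is known from seeds, where it holds back germination in the dark: the light-labile factor PIF1 activates it, and with SOM present the seed makes more abscisate and less gibberellin. TZF5 and TZF6 share that role in seeds, and the larger members with ankyrin repeats, TZF7 to TZF11, are better known from salt, oxidative and immune responses.

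SOM stood apart from the rest of the family. It was nearly silent in both WT pools and in the overexpressor reached 10.4% and 13.5% of the summed transcript level of the 10 members. TZF5, its closest relative by sequence, stayed under 0.5 CPM in each library, and TZF6 had 0 reads throughout. Of the rest, TZF10 and TZF11 had higher values in both overexpressor pools than in both WT pools, and TZF1, TZF2, TZF3, TZF7 and TZF9 had overlapping values. CPM are reads of a gene scaled with the TMM method, which corrects for RNA composition, to a common library size.

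The coding stretch of both fingers is shown for SOM, for TZF5 and TZF6, which act beside it in seeds, and for TZF10 and TZF11, the members the values turn on. The sequences are RefSeq coding strands of assembly TAIR10.1, 5′ to 3′, from the first cysteine codon to the last histidine codon, with the cysteine and histidine codons in capitals. They were joined to the deposited tables by locus identifier alone, since the tables name no genome build.
SOM: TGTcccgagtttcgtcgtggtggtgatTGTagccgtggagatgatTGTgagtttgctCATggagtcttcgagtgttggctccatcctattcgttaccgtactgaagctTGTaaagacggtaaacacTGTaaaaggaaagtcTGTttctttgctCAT
TZF5: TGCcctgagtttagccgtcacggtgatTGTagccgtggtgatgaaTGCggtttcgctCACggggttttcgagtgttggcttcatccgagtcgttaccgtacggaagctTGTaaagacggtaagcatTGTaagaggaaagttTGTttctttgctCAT
TZF6: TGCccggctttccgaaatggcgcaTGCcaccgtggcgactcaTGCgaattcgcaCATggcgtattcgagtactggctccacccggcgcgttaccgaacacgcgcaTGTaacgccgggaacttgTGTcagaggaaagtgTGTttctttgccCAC
TZF10: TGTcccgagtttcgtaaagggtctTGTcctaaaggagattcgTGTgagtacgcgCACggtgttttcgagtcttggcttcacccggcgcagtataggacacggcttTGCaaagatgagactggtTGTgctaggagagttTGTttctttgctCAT
TZF11: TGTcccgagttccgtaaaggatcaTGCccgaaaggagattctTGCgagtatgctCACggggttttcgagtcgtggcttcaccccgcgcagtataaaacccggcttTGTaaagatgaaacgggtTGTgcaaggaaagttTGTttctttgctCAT

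Every one of the 10 loci held this spacing of codons. So did 1 other of 27422 nuclear genes with a coding sequence, AT5G12850. That gene is not among the members, so the family sums and shares given here leave it out. In SOM and TZF5, 8 residues lie between the first and the second cysteine, against 7 in the other members. After that come gaps of 5 and 3 residues, then 16 residues between the fingers, then gaps of 5, 4 and 3. Coding sequences ran from 245 codons in TZF6 to 716 in TZF7. SOM had 393 and TZF5 had 381, and the members with ankyrin repeats had 597 or more. The longest coding sequence had 2 exons for TZF11 and 1 for each of the others.

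Within the finger stretch, aligned without gaps from the last histidine codon, SOM shared 84.6% of its bases with TZF5 and 58.2% with TZF10 and with TZF11. With 8 residues between the first and the second cysteine against 7, SOM and TZF5 are out of step with the other members there. This can lower their shares with those members, including TZF3 and TZF6, but not the share between SOM and TZF5. TZF2 and TZF3 shared 87.6%, and TZF10 and TZF11 shared 86.9%. TZF6 shared 64.7% with SOM and 66.0% with TZF5, fewer than the 70.6% that TZF3 shared with SOM. Sequence likeness and level did not go together for SOM and TZF5, whose levels in the overexpressor were far apart. Estimated reads of all 10 members were whole numbers within 0.001 in every library, as were those of 96.9% to 97.3% of all genes. Genes with 0 reads count as whole here, among them TZF6 and 9663 of the 33602 genes that had 0 reads in every library.

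**Figure D1:**
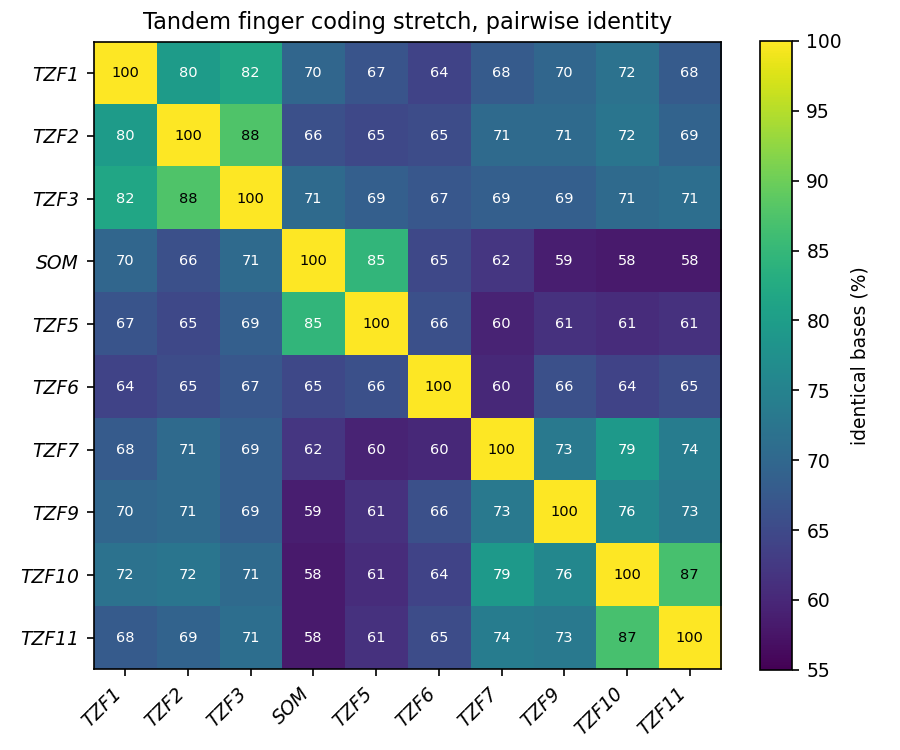
Share of identical bases in the finger coding stretch, in percent, for each pair of the 10 members, aligned without gaps from the last histidine codon. Before the second cysteine, SOM and TZF5 are therefore out of step with the other members, which can lower those shares. SOM with TZF5 at 84.6%, TZF2 with TZF3 at 87.6% and TZF10 with TZF11 at 86.9% are the brightest pairs.

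The libraries held between 13974460 and 25740234 estimated reads. WT replicate 1 stood apart in composition, with 28.1% of its reads on chloroplast ribosomal RNA against 0.956% to 1.29% in the other libraries, and it had 9541345 reads of nuclear genes. A count of 3 reads, taken as the smallest measured level, came to between 0.108 and 0.268 CPM. As a check of the tissue, the leaf genes RBCS1A, LHCB1.1, CA1 and GLDP1 summed to between 31501 and 38218 CPM. The root genes CASP1, SCR, COBL9, EXPA7 and WER summed to 43.6 and 45.8 CPM in WT and to 31.0 and 30.6 CPM in the overexpressor, mostly from SCR at 29.2 to 38.4 CPM. The root hair genes COBL9 and EXPA7 had 1 and 3 reads in WT replicate 1 and 58 and 71 in WT replicate 2, against 1 to 5 reads in the overexpressor libraries. In such bulk samples fewer cells of a type and less RNA per cell cannot be told apart.

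SOM (AT1G03790) had 0 reads in WT replicate 1 and 2 reads in WT replicate 2, and 216 and 419 reads in overexpressor replicates 1 and 2. On the CPM scale these were levels of 0, 0.0723, 11.2 and 15.3. Both WT values lay under the level of 3 reads and both overexpressor values lay far above it. The ratio of summed reads at equal depth was 264, with an exact 95% counting interval of 72.9 to 2187 that covers counting error only. PCR copies cannot be told apart, so reads are not independent molecules.

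Among the 19474 genes tested, SOM ranked 6th by fitted fold change, with an adjusted p of 0.0344 (edgeR, quasi-likelihood, Benjamini-Hochberg). By adjusted p it was placed 4th, a place shared with tied genes, since equal values all took the best place. SOM passed the low-count filter through the overexpressor libraries alone, so a difference was built into its being tested. The call at an adjusted p below 0.05 was lost without overexpressor replicate 1 (adjusted p = 0.119) and without overexpressor replicate 2 (adjusted p = 0.221). It was also lost with limma-voom in place of edgeR (adjusted p = 0.071). Without WT replicate 1, the library with the ribosomal reads, edgeR's adjusted p was 0.00746.

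**Figure D2:**
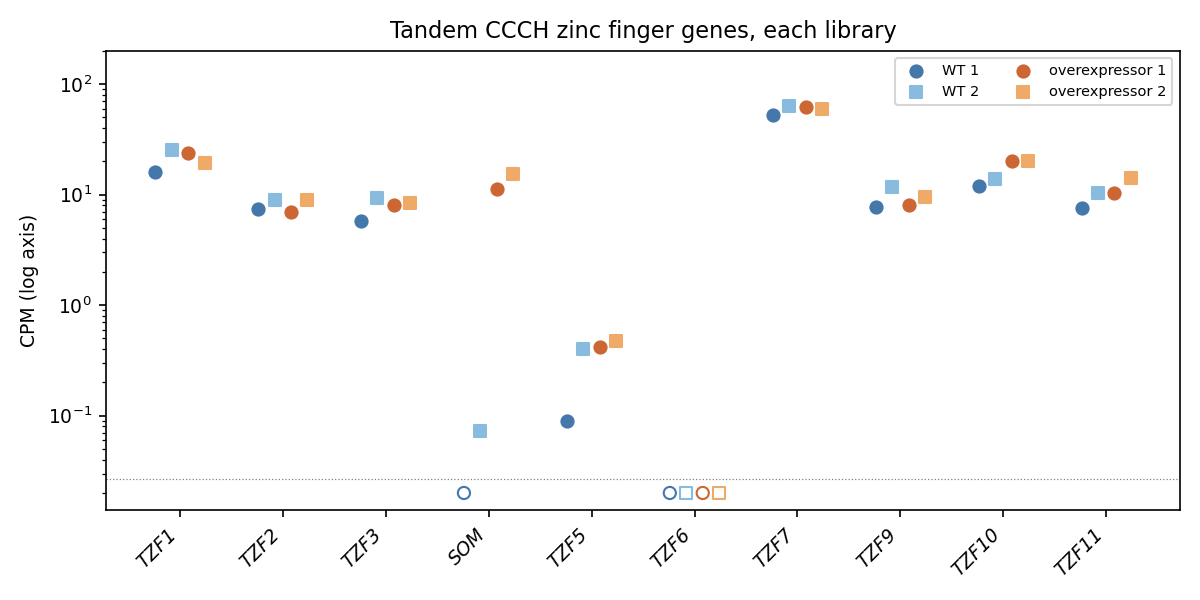
CPM of the 10 members in each of the 4 libraries on a log axis, circles for replicate 1 and squares for replicate 2, blue for WT and orange for the overexpressor; open symbols under the dotted line are libraries with 0 reads. SOM goes from 0 and 0.0723 CPM in the WT pools to levels of 11.2 and 15.3 in the overexpressor pools, and TZF6 has no reads in any library.

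TZF5 (AT5G44260), which acts beside SOM in abscisate and gibberellin responses of seeds, had 1 and 11 reads in the WT pools, against 8 and 13 in the overexpressor pools. Its levels were 0.0893 and 0.398 CPM in the WT pools, against 0.416 and 0.474 CPM in the overexpressor pools. The groups did not overlap, but the ratio of summed reads was 1.46 with a 95% counting interval of 0.685 to 3.25, so a difference was not detectable at this depth. The gene fell under edgeR's low-count filter, and DESeq2, which kept it, gave a log2 fold change of 0.79 ± 1.34 (SE) and an adjusted p of 0.877. TZF6 (AT5G07500), also called PEI1 and known from embryo development, had 0 reads in each library, which allows up to 3 reads, or 0.268 CPM in the shallowest library.

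TZF1 (AT2G25900), a regulator of growth and stress responses that shuttles between nucleus and cytoplasm, had 16.2 and 25.6 CPM in the WT pools, against 23.9 and 19.2 CPM in the overexpressor pools. The WT pools spanned both overexpressor pools, and the log2 fold change was 0.03 ± 0.25 (SE, edgeR). TZF2 (AT2G19810) and TZF3 (AT4G29190), also named OZF1 and OZF2 for their part in oxidative stress, were at similar levels. TZF2 had 7.42 and 8.89 CPM in the WT pools, against 6.97 and 8.93 CPM in the overexpressor pools, a log2 fold change of -0.04 ± 0.20 (SE). TZF3 had 5.81 and 9.36 CPM in the WT pools, against 8.06 and 8.45 CPM in the overexpressor pools, a log2 fold change of 0.10 ± 0.25 (SE). For all 3 genes the SE was larger than the difference.

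TZF7 (AT2G41900), known as OXS2, a factor that enters the nucleus under stress and can activate the floral integrator SOC1, was the most abundant member. It had 52.5 and 62.9 CPM in the WT pools, against 62.2 and 59.5 CPM in the overexpressor pools, a log2 fold change of 0.07 ± 0.12 (SE). TZF9 (AT5G58620), which takes part in immune responses, had 7.68 and 11.6 CPM in the WT pools, against 8.06 and 9.44 CPM in the overexpressor pools, a log2 fold change of -0.16 ± 0.24 (SE). Both genes had overlapping genotypes.

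TZF10 (AT2G40140) and TZF11 (AT3G55980), or SZF2 and SZF1, are salt-inducible genes that also respond within a short time to microbial elicitors. TZF10 had 11.9 and 13.95 CPM in the WT pools, against 20.0 and 20.2 CPM in the overexpressor pools. The overexpressor pools differed little from each other and both lay above WT, at a log2 fold change of 0.63 ± 0.13 (SE). TZF11 had 7.50 and 10.3 CPM in the WT pools, against 10.4 and 14.1 CPM in the overexpressor pools, at 0.44 ± 0.23 (SE). For TZF11 the highest WT and the lowest overexpressor library nearly met. Neither passed the threshold: the adjusted p was 0.117 for TZF10 and 0.325 for TZF11 in edgeR with Benjamini-Hochberg adjustment. TZF10 had an adjusted p of 0.0518 with DESeq2, and one of 0.0291 in edgeR without WT replicate 2.

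Of the 10 members, 8 passed the low-count filter. At an adjusted p below 0.05 in edgeR, 1 was higher, SOM, and 0 were lower, where 0.139% and 0.0103% of all genes tested were. DESeq2 also called SOM alone among the members, and 0 lower, against 4.40% of genes higher and 1.48% lower. At an unadjusted p below 0.05 in edgeR, 2 members were higher, SOM and TZF10, and 0 were lower, against 11.9% and 9.81% of all genes tested. Groups did not overlap in 3 tested members, all higher in the overexpressor, and in 28.7% of all genes in that direction and 28.4% in the other. Since this contrast led to the choice of the family, nothing is read from these counts. The median log2 fold change of the 8 was 0.09, and that of all genes tested was -0.01.

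The WT pools differed from each other in this family. Leaving out SOM, whose WT reads lay under the level of 3 reads, each of the 7 tested members was higher in the second WT pool than in the first, as were 51.8% of all genes tested. The median log2 ratio of WT replicate 2 over WT replicate 1 was 0.44 for these members and 0.01 for all genes. Of the same 7, 5 were higher in overexpressor replicate 2 than in overexpressor replicate 1, with a median log2 ratio of 0.065. The choice of WT library moved several members across 0. Without WT replicate 1 the log2 fold change of TZF1 was -0.24, of TZF3 -0.17 and of TZF9 -0.39, and without WT replicate 2 they were 0.41, 0.51 and 0.19. TZF10 ranged from 0.54 to 0.76 and TZF11 from 0.21 to 0.71 over the 4 omissions, with the same sign each time. Their groups do not overlap, so leaving out 1 library could hardly turn the sign, and nothing is read from it. The part of ribosomal reads or of seedling state in this WT difference was not tested.

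**Figure D3:**
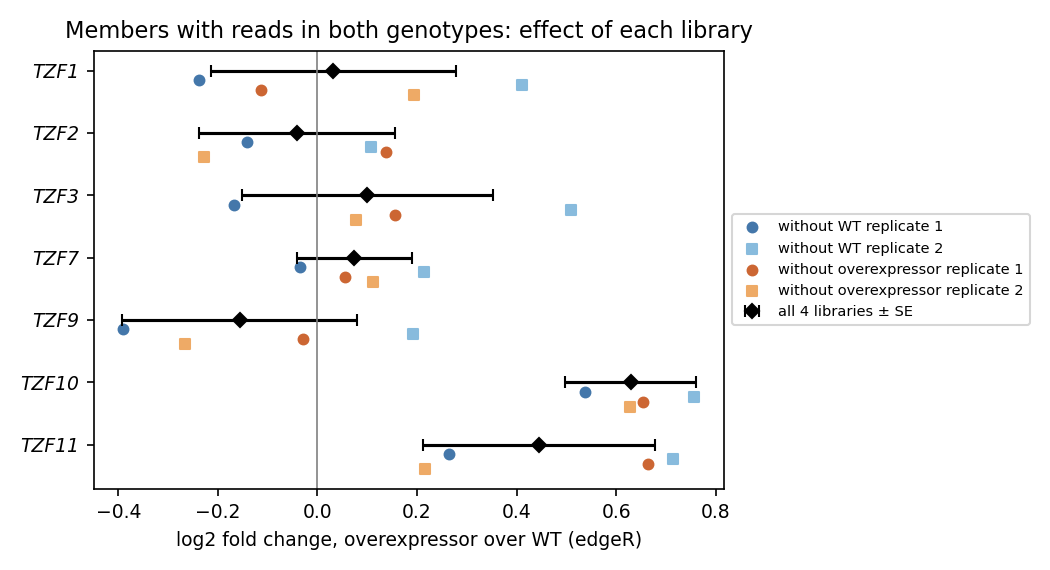
Log2 fold change of overexpressor over WT for the 7 tested members other than SOM, with all 4 libraries (black diamonds, bars ± SE from edgeR) and with each library left out in turn (coloured symbols). TZF10 and TZF11, whose groups do not overlap, stay right of 0 in each case. TZF1, TZF2, TZF3, TZF7 and TZF9 fall on both sides of 0.

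Levels were compared between members as TPM, a transcript abundance unit, which corrects for transcript length and was rescaled here over nuclear genes. In WT the order by mean TPM was TZF7 at 26.4, TZF1 at 17.1, TZF10 at 7.77, TZF3 at 7.39, TZF2 at 7.32, TZF11 at 5.57, TZF9 at 5.13, TZF5 at 0.210, SOM at 0.0317 and TZF6 at 0. The ranges of the pools overlapped between TZF10 and TZF3, between TZF3 and TZF2, between TZF11 and TZF9, and between SOM and TZF6, so these neighbours do not differ beyond their spread. In the overexpressor the mean of SOM was 10.4 TPM, the fourth place after TZF7, TZF1 and TZF10, and its range overlapped that of TZF10, whose mean was 10.9 TPM. Among 23724 nuclear genes with reads, SOM stood at percentile 5.42 in WT and 60.3 in the overexpressor, and TZF7 at 78.9 and 79.0.

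The summed level of the family was 65.8 and 87.9 TPM in WT and 83.9 and 89.8 TPM in the overexpressor. Without SOM the sums were 65.8, 87.8, 75.2 and 77.7 TPM, so the WT pools spanned the overexpressor pools. TZF7, TZF9, TZF10 and TZF11 together summed to 40.0 and 49.6 TPM in WT and to 45.2 and 48.3 TPM in the overexpressor, again with overlap.

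**Figure D4:**
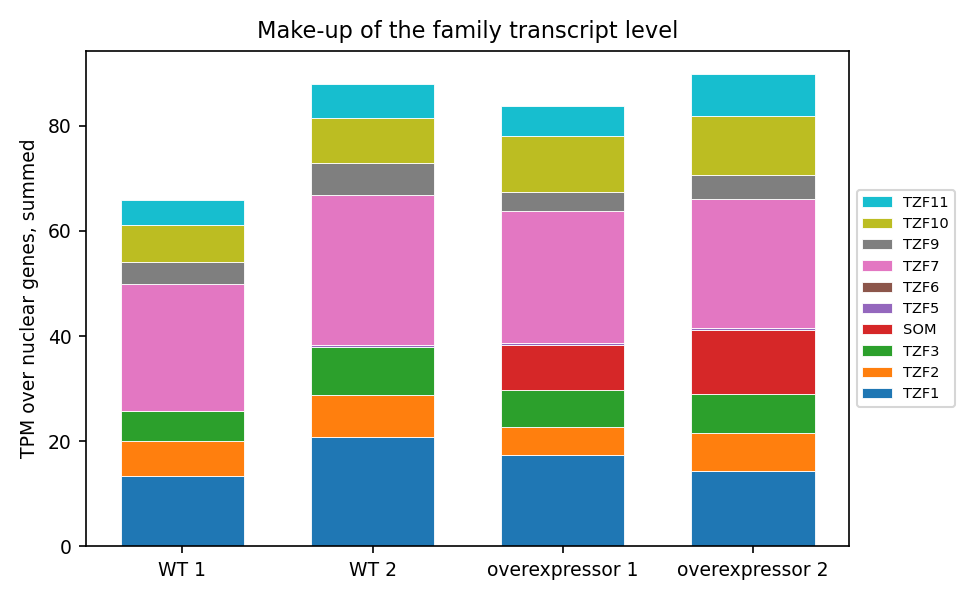
Summed TPM over nuclear genes of the 10 members in each library, stacked by gene. The block for SOM is visible in the overexpressor libraries, at 8.70 and 12.2 TPM, and not in WT.

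Of the 10 genes upstream of SOM in seeds 7 were tested. In edgeR 0 passed at an adjusted p below 0.05, where 0.139% of all genes were higher and 0.0103% lower, and 0 at an unadjusted p below 0.05, where 11.9% and 9.81% were. DESeq2 called 0 of them, where it called 4.40% of all genes higher and 1.48% lower. PIF1, the bHLH factor that activates SOM in the dark, had 17.4 and 18.8 CPM in the WT pools, against 19.3 and 17.0 CPM in the overexpressor pools; it is singled out here after its values were seen. ABI3, a seed B3 factor that acts with PIF1 at SOM, had 3 reads in WT and 1 in the overexpressor, and AGL67, a MADS factor for SOM in seeds, had 0 and 3. The median log2 fold change of the 7 was -0.06. In 4 of them, PHYA, PHYB, RGA and GAI, both overexpressor pools lay below both WT pools, as they did for 28.4% of all genes tested. The photoreceptor PHYB had 79.2 and 80.1 CPM in the WT pools, against 77.0 and 77.4 CPM in the overexpressor pools. For PHYA the log2 fold change was -0.28 ± 0.15 (SE), and for the gibberellin repressors RGA and GAI it was -0.16 ± 0.10 and -0.06 ± 0.09 (SE).

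Of the 9 genes that respond to SOM in seeds, 7 were tested in edgeR, with a median log2 fold change of -0.04. GA3OX1, an enzyme of gibberellin synthesis that is held down where SOM is active, had 6.43 and 9.76 CPM in the WT pools, against 6.65 and 7.11 CPM in the overexpressor pools. CYP707A2, an abscisate hydroxylase, had 12.3 and 16.2 CPM in the WT pools, against 12.0 and 15.8 CPM in the overexpressor pools. The genotypes overlapped in both. ABA1, an early enzyme of abscisate synthesis, had a log2 fold change of 0.11 ± 0.19 (SE), and JMJ22, a histone arginine demethylase, one of -0.11 ± 0.14 (SE). GA2OX2, which inactivates gibberellin, had 2.95 and 2.86 CPM in the WT pools, against 3.53 and 4.77 CPM in the overexpressor pools, a log2 fold change of 0.52 ± 0.25 (SE). GA3OX2, of the same enzyme group as GA3OX1, had one of 0.37 ± 0.40 (SE). Both were higher without overlap, as were 28.7% of all genes tested, and neither passed the threshold (adjusted p = 0.293 and 0.613, edgeR). They are named after their values were seen. NCED9, a seed enzyme of abscisate synthesis, had 1 read in WT and 17 in the overexpressor and was not tested in edgeR. It was chosen after its values were seen. DESeq2 tested 8 of the 9 genes, NCED9 among them, and called 0, where it called 4.40% of all genes higher and 1.48% lower. NCED6 had 0 reads in each library.

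Known partners and the decay machinery were read the same way. RD21A, a cysteine protease, and MARD1, a senescence-associated protein, bind SOM, TZF5 and TZF6. RD21A had 184 and 268 CPM in the WT pools, against 391 and 499 CPM in the overexpressor pools, a log2 fold change of 0.98 ± 0.22 (SE). MARD1 had 8.67 and 14.3 CPM in the WT pools, against 18.9 and 20.2 CPM in the overexpressor pools, a log2 fold change of 0.75 ± 0.25 (SE). In both genes each overexpressor pool lay above each WT pool, as in 28.7% of all genes tested. The adjusted p was 0.124 for RD21A and 0.187 for MARD1 in edgeR with Benjamini-Hochberg adjustment. DESeq2 called RD21A higher, as it did 4.40% of all genes.

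All 18 genes of RNA granules and decay were tested, with a median log2 fold change of 0.05. The poly(A)-binding protein genes PAB2 and PAB8 had log2 fold changes of 0.05 ± 0.09 and -0.03 ± 0.09 (SE), the decapping factor DCP5 one of 0.00 ± 0.09 (SE), and the granule nuclease TSN1 one of 0.10 ± 0.11 (SE). CAF1B, a subunit of the deadenylase that shortens poly(A) tails, had 0.715 and 1.16 CPM in the WT pools, against 3.33 and 2.92 CPM in the overexpressor pools, and AGO1, the main microRNA effector, had 98.3 and 106.9 CPM in the WT pools, against 83.9 and 78.0 CPM in the overexpressor pools. Both were singled out after their values were seen, as the genes of that list with an unadjusted p below 0.05. Over these 4 lists of 39 genes, 34 were tested, and 0 passed an adjusted p below 0.05 in edgeR in either direction. At an unadjusted p below 0.05 edgeR had 3 higher and 1 lower, where 11.9% and 9.81% of all genes tested were. DESeq2 called 1 higher and 0 lower, where 4.40% and 1.48% of all genes were.

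Seed transcripts were measured beside SOM, because SOM is best known from seeds. EM6, a late embryogenesis abundant gene that also responds to abscisate, had 0 and 2.10 CPM in the WT pools, against 18.3 and 21.7 CPM in the overexpressor pools. EM1, its relative, had 0 reads in each WT library and 28 and 3 reads in overexpressor replicates 1 and 2. The storage protein genes CRC and SESA3 had 0 reads in each library, CRA1 had 3 reads and SESA1 had 1, all in the overexpressor. The 11 seed genes summed to 0.357 and 2.28 CPM in the WT pools, against 20.7 and 22.6 CPM in the overexpressor pools, mostly EM6. The seed regulators FUS3 and LEC2 had 10 and 5 reads in the overexpressor and 5 and 0 in WT. CASP1, a gene of the root endodermis, went the other way, with 4.38 and 7.59 CPM in the WT pools, against 0.520 and 0.911 CPM in the overexpressor pools. Neither EM6 (adjusted p = 0.118) nor CASP1 (adjusted p = 0.0814) passed the threshold in edgeR. Both root genes tested in edgeR, CASP1 and SCR, were lower without overlap, as were 28.4% of all genes tested. EXPA7 and WER, not tested in edgeR, were also lower without overlap, and COBL9 overlapped. EXPA7 had 3 and 71 reads in the WT pools, against 1 and 5 in the overexpressor pools. WER had 5 and 12 reads in WT, against 3 and 5, so both rest on counts near the level of 3 reads. DESeq2 called 1 of the 5 root genes lower, where 1.48% of all genes were. It called 0 of the 2 seed genes it tested, where 4.40% of all genes were higher. The part of tissue make-up in the SOM level was not tested.

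**Figure D5:**
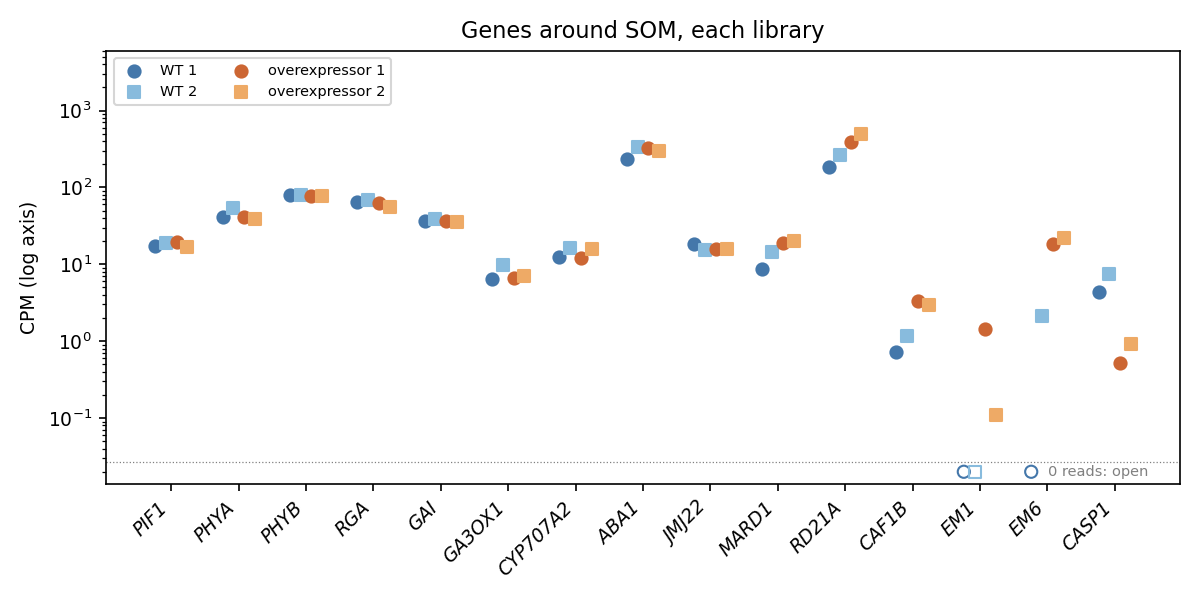
CPM in each library, on a log axis, of genes upstream of SOM (PIF1, PHYA, PHYB, RGA, GAI), genes that respond to it in seeds (GA3OX1, CYP707A2, ABA1, JMJ22), partners (MARD1, RD21A), the deadenylase subunit CAF1B, the seed genes EM1 and EM6 and the root gene CASP1; symbols as for the members, open ones for 0 reads. RD21A, MARD1, CAF1B and EM6 lie higher in both overexpressor libraries, CASP1 and, by less, PHYA, PHYB, RGA and GAI lie lower in both, and PIF1, GA3OX1, CYP707A2, ABA1 and JMJ22 overlap; EM1 has 28 and 3 reads in the overexpressor and none in WT.

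The genes with a profile over the 4 libraries most like that of SOM were AT2G38240, DIN2, RAB18, NATA1 and RAP2.6, at Euclidean distances of 0.166, 0.540, 0.626, 0.637 and 0.693 in centred log2(CPM + 0.5). With 4 points this is a description of a like jump between the genotypes, and 2 of the 5, AT2G38240 and DIN2, were also among the nearest 5 with 2 in place of 0.5. AT2G38240, an oxygenase gene, had 0 and 1 read in WT and 223 and 371 reads in the overexpressor. DIN2, a dark-inducible beta-glucosidase, had 5 and 11 reads in the WT pools, against 249 and 562 in the overexpressor pools.

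The other genes that RefSeq describes as CCCH zinc finger proteins numbered 56 in the tables, and 48 of them were tested. In edgeR 0 passed an adjusted p below 0.05, while 7 were higher and 1 was lower at an unadjusted p below 0.05, where 11.9% and 9.81% of all genes tested were. DESeq2 called 1 higher, where 4.40% of all genes were. Their median log2 fold change was 0.08. Of the 48, 25 were higher in the second WT pool than in the first, or 52.1%.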

How the data were processed

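RNA was taken from pools of 5 seedlings (200 ng per library), and poly(A)-enriched stranded Illumina libraries were made, per the labels' protocols. For every library the authors deposited estimated counts and TPM of genes in 1 table, per the file headers. Quantifier, build and gene models: not given in the sources used here. DESeq2 appears, with no version, in the submitters' processing notes. RefSeq TAIR10.1 gave names and sequences by locus identifier, with no coordinates printed.

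Estimated counts were rounded to integers, and edgeR 4.0.16 (R 4.3.3) was run with filterByExpr (minimum count 10, minimum total 15), TMM, quasi-likelihood fit, Benjamini-Hochberg adjustment over 19474 genes. The SE is edgeR's unshrunk coefficient divided by the square root of F. DESeq2 1.42.0 and limma 3.58.1 served as alternatives. The fits were also run on simulated counts. These held no ribosomal difference between libraries, so that run does not cover the composition of WT replicate 1. Members, lists and rules were chosen with earlier results of these data known. Named genes were all 10 members, genes past the threshold and the 4 highest by CPM of each list, and seed genes with 10 or more reads in a library; other list genes (ABI3, AGL67, NCED6, GA2OX2, GA3OX2, FUS3, LEC2 and the storage protein genes among them) were named after their values were seen. An exact permutation test of 2 against 2 libraries cannot go below p = 0.333. Replicates differed beyond sampling noise (chi-square over degrees of freedom was 397 in WT and 9.00 in the overexpressor). The chi-square was taken on counts without TMM and with organelle genes included, so the WT value also holds the ribosomal reads of WT replicate 1. The part of those reads in it was not separated. The p-values of edgeR rest on the spread between these pools, estimated with information shared across genes.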

Additional observations from a re-analysis of the deposited data

How the results depend on the processing

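SOM was higher in the overexpressor under all 14 alternatives. Its fitted log2 fold change, which depends on the prior count because WT had 2 reads, was 7.87 and became 7.72 with limma-voom, where the call was lost, and 3.44 with limma-trend on log2(TPM + 1), where it was kept. Leaving out 1 library at a time gave 7.44 to 11.0, with the call lost without either overexpressor library. In such fits the spread of a lone library is assumed from the other genotype. The count of members past the threshold, 1 higher, became 0 with limma-voom and ranged from 0 to 2 over the omissions, the second being TZF10 without WT replicate 2.

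The log2 fold change of TZF1 was -0.023 with limma-voom, and that of TZF2 was 0.017 with limma-trend and 0.061 with scaling by library size only. Over the omissions TZF1 ranged from -0.24 to 0.41, TZF2 from -0.23 to 0.14, TZF3 from -0.17 to 0.51, TZF7 from -0.035 to 0.21 and TZF9 from -0.39 to 0.19. The median of the 8 members tested ranged from -0.089 without WT replicate 1 to 0.46 without WT replicate 2. TZF10 and TZF11, whose groups do not overlap, kept their sign under all 14 alternatives. Scaling by library size only moved the median of all genes by 0.12 on the log2 scale.

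Over all genes, 27 higher and 2 lower in the main setting became 912 and 307 with DESeq2, 0 and 0 with limma-voom, 250 and 24 with limma-trend, and 570 and 239 with scaling by library size only. They became 163 and 21 with organelle genes left out, 305 and 57 with no low-count filter, and 65 and 10 with at least 1 CPM in 2 libraries. Over the omissions they ranged from 0 to 1189 higher and from 0 to 1014 lower. Pathway genes past the threshold, 0 in the main setting, were 1 higher with DESeq2 (RD21A) and 1 with scaling by library size only (CAF1B), and from 0 to 3 over the omissions. The cause was not tested.

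The replicate number as a block gave 329 genes higher and 43 lower, with 1 pathway gene higher (RD21A) and SOM at 7.97. The replicate numbers are not said to mark a shared batch, and same-numbered libraries deviated with a correlation of 0.039 across genes, so the block is no pairing of the design. The order of the members by TPM was the same with the deposited TPM, in both genotypes. TZF6 had no reads for a fold change, and TZF5, with 12 reads in WT, had one from DESeq2 with an SE above its size.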

Other observations

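In the 250 bases before the RefSeq start of each gene, searched on both strands in assembly TAIR10.1, the letters CACGTG (the G-box) occurred in 0 of the 10 members and in 6.5% of 27443 protein-coding genes. The letters ACGTG, the core of the abscisate-responsive element and contained in the G-box, occurred in 5 of the 10 members and in 22.9% of those genes. The 5 were TZF2, TZF3, TZF5, TZF7 and TZF9. SOM, TZF10 and TZF11 did not hold these letters in this window, which covers a short stretch, and the transcript lengths in the deposited tables differ from RefSeq for several members, so their starts may differ too. With 50 bases after the start added, the counts were 0 and 5, against 7.7% and 26.7%.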
